A study of Canis lupus familiaris with 10 samples.

Results

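Tight junction scaffolds and their partners in the membrane were followed in cells of the MDCK line, dog kidney epithelium, as calcium was withdrawn and returned. The genes are TJP1, CGN and CGNL1, which encode proteins under the membrane, and OCLN, MARVELD2, MARVELD3 and F11R, which encode proteins in it. Members were the genes of this list named alone by a probe set of the array, and all 7 were found among 15947 genes with a probe set of their own. Each had 1 such probe set. A further probe set listed with TJP1 and a second gene was not used.

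The study used 1 GeneChip Canine Gene 1.0 ST array for each of 2 lines at 5 steps, 10 arrays in all, each with RNA mixed from 3 preparations. The BLT2 line overexpresses human BLT2, which binds the lipid mediator 12-HHT (12-hydroxyheptadecatrienoic acid) at the cell surface, and the Mock line is its control. The 5 steps, sampled in both lines, were confluent cells in DMEM with 10% FCS (0 h), 2 h in SMEM without calcium, 18 h in the same medium, 18 h in SMEM followed by 2 h in DMEM (return), and the same return with 200 nM 12-HHT. Whether each line is 1 clone, which promoter drives the receptor and whether SMEM or the return medium held serum are not given in the sources used here. Medium and calcium changed together at each change, so that their effects cannot be told apart.

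The tight junction is the belt that seals the space between epithelial cells near their apical side. Occludin (OCLN), tricellulin (MARVELD2) and MARVELD3 cross the membrane and share the MARVEL fold, tricellulin being concentrated where the corners of 3 cells meet. JAM-A (F11R) is an immunoglobulin-like adhesion protein. ZO-1 (TJP1) is the PDZ scaffold that ties claudins, occludin and JAM-A to actin, and cingulin (CGN) and paracingulin (CGNL1) bind ZO-1 from below. Adhesion by cadherins needs calcium outside the cell, which is why its removal opens these junctions and its return lets them form again.

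Values are log2 signals as the authors deposited them, so that 1 unit is a doubling. Signals of different probe sets are not on a common scale, and no gene's level is set against another's here. The number of arrays limits the precision. A change given ± SE comes from an additive limma fit of line and step over all 10 arrays, in which each step rests on 2 arrays, 1 per line. The p-values rest on the spread that fit leaves, and a gene is called at an adjusted p under 0.05 over 10498 tested genes. Differences within 1 line compare 1 array with 1 array and have no test. All 7 genes passed the signal filter, which asked for at least 2 arrays with a signal above 7.21, the overall median. CGNL1 lay above it on 4 arrays and the other 6 genes on all 10, so that the low values of CGNL1 carry little information. Array medians ran from 7.16 to 7.27, and the BLT2 2 h array stood somewhat apart, with a mean correlation of 0.975 to the others against 0.982 to 0.987 for the remaining 9. All 8 epithelial markers looked for, among them CDH1 and EPCAM, were above the filter on all 10 arrays. Of the kidney markers PAX8 and PAX2 were above it on all arrays, and CDH16, a cadherin of kidney tubules, on 1. Of 7 fibroblast markers 1 (COL1A1), of 6 endothelial markers 1 (CLDN5) and of 5 leukocyte markers 0 were above it on all arrays, with CD14 on 9. The defining markers DCN, PECAM1 and PTPRC were below it on every array.

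**Figure D1:**
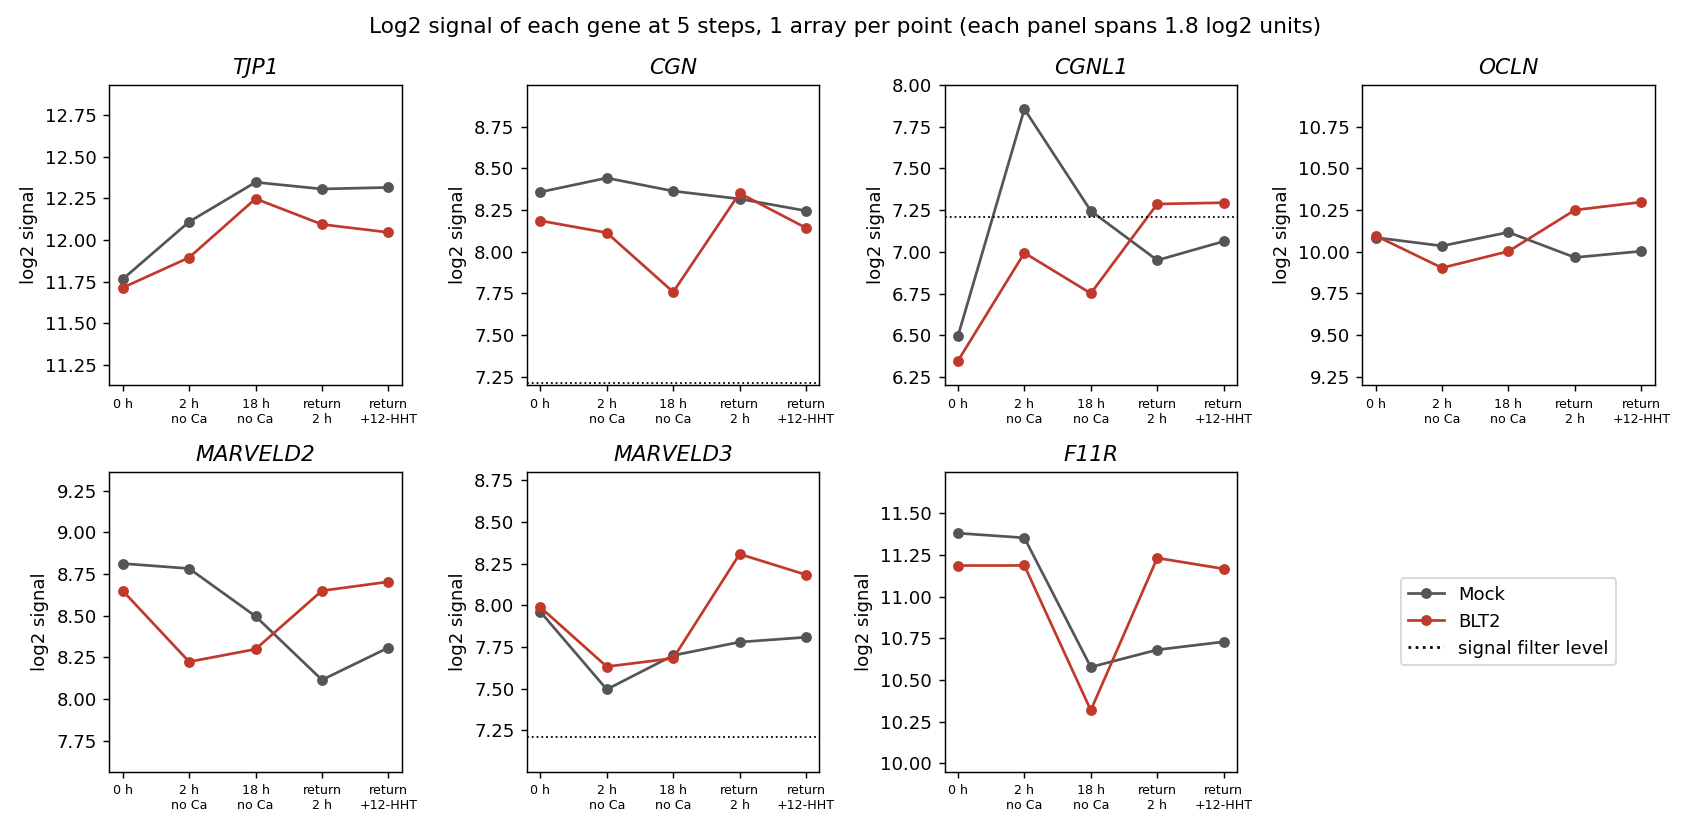
Log2 signal of the 7 genes (y axis) at the 5 steps (x axis) in Mock (grey) and BLT2 (red) cells, 1 array per point, each panel spanning the same height, with the signal filter level dotted. TJP1 is higher at 18 h than at 0 h in both lines, F11R is lower at 18 h in both, and after calcium return F11R is near 11.2 in BLT2 and near 10.7 in Mock cells.

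TJP1 rose while calcium was absent and stayed up after its return. In Mock cells its signal was 11.76 at 0 h, 12.11 at 2 h, 12.35 at 18 h, 12.31 on return and 12.31 on return with 12-HHT. In BLT2 cells it was 11.71, 11.89, 12.25, 12.09 and 12.05 at the same steps. Both 0 h arrays were the lowest of their line and both 18 h arrays the highest, and the 0 h signals lay below all 8 others. At 18 h TJP1 was 0.56 ± 0.10 above 0 h (limma adjusted p = 0.00726). On return it was still 0.46 ± 0.10 above 0 h (limma adjusted p = 0.0224), and its change from 18 h to return was -0.10 ± 0.10 (adjusted p = 0.623). Leaving out the Mock 0 h array or that of BLT2 cells at 18 h ended the 18 h call (adjusted p at most 0.0789), leaving out any of the 4 arrays at 0 h and return ended the return call (at most 0.152). At 2 h it was 0.26 ± 0.10 above 0 h (adjusted p = 0.161).

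CGN, which encodes cingulin, differed little between steps in Mock cells, where its signals ran from 8.24 on return with 12-HHT to 8.44 at 2 h. In BLT2 cells they were 8.18 at 0 h, 8.11 at 2 h, 7.76 at 18 h, 8.35 on return and 8.14 on return with 12-HHT. The BLT2 18 h array was the lowest of the 10. The fit gave -0.21 ± 0.15 at 18 h against 0 h (limma adjusted p = 0.355), and without the BLT2 18 h array the value was 0.02.

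CGNL1, which encodes paracingulin, had its lowest signals in both lines at 0 h, 6.49 in Mock and 6.35 in BLT2 cells. At 2 h without calcium it was at 7.86 in Mock and 6.99 in BLT2 cells, and at 18 h at 7.25 and 6.75. On return Mock cells were at 6.95 and with 12-HHT at 7.06, against 7.29 in BLT2 cells with either. Every later array of a line was above its 0 h array, and the 2 h array of Mock cells was the highest of all. CGNL1 was 1.00 ± 0.27 above 0 h at 2 h (limma adjusted p = 0.0798) and 0.70 ± 0.27 above it on return (adjusted p = 0.129). Both 0 h signals and the BLT2 2 h signal lay below the filter level, so that only the Mock 2 h array of these steps was above it. The calls that follow therefore carry little information. With only the arrays at 0 h and 2 h, or only the 6 before return, a fit chosen after seeing the data, the 2 h change was called (limma adjusted p = 4.58e-05 and 0.0150), while leaving out 1 array gave an adjusted p of 0.0618 to 0.383.

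OCLN varied least, with signals from 9.90 to 10.30 over the 10 arrays and an SD of 0.12, below that of all but 11.4% of tested genes. In Mock cells its signal was 10.08 at 0 h, 10.03 at 2 h, 10.12 at 18 h, 9.96 on return and 10.00 with 12-HHT. In BLT2 cells it was 10.10, 9.90, 10.00, 10.25 and 10.30. Both BLT2 return arrays lay above the other 8. No step comparison of OCLN was called, the largest change being -0.12 ± 0.14 at 2 h against 0 h (limma adjusted p = 0.637).

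MARVELD2, the gene of tricellulin and the neighbour of OCLN in the dog assembly UU_Cfam_GSD_1.0 with 0 protein-coding genes between them, had other levels in the lines on return. In Mock cells its signal was 8.81 at 0 h, 8.78 at 2 h, 8.50 at 18 h, 8.12 on return and 8.31 on return with 12-HHT. In BLT2 cells it was 8.65, 8.22, 8.30, 8.65 and 8.70. In Mock cells both return arrays were the lowest of the line, while in BLT2 cells they were level with the 0 h array or above it. The fitted change of MARVELD2 on return against 0 h was -0.35 ± 0.25 (limma adjusted p = 0.382), with -0.70 in Mock and 0.00 in BLT2 cells.

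MARVELD3, the third gene of the family, had its lowest signals at 2 h, 7.50 in Mock and 7.63 in BLT2 cells. The other Mock signals were 7.96 at 0 h, 7.70 at 18 h, 7.78 on return and 7.81 with 12-HHT, and the other BLT2 signals 7.99, 7.68, 8.31 and 8.18. Both BLT2 return arrays were above the other 8. At 2 h MARVELD3 was at -0.41 ± 0.15 against 0 h (limma adjusted p = 0.151). This value was called when only the arrays of both steps (limma adjusted p = 0.0295) or only the 6 arrays before return (adjusted p = 0.0445) were fitted. Leaving out 1 array gave it an adjusted p of 0.113 to 0.477.

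F11R, the gene of JAM-A, fell between 2 h and 18 h without calcium. In Mock cells its signal was 11.38 at 0 h, 11.35 at 2 h, 10.58 at 18 h, 10.68 on return and 10.73 on return with 12-HHT. In BLT2 cells it was 11.19 at 0 h and 2 h, 10.32 at 18 h, 11.23 on return and 11.17 with 12-HHT. Signals at 18 h were the lowest of each line and did not overlap with those at 0 h and 2 h. At 18 h F11R fell by 0.84 ± 0.22 from its 0 h signal (limma adjusted p = 0.0289). From 2 h it fell by 0.82 ± 0.22 (limma adjusted p = 0.0349). Within the lines the difference from 0 h was -0.80 in Mock and -0.87 in BLT2 cells. Each call was lost when any of the 4 arrays it compares was left out, the change from 0 h then ranging from -1.04 to -0.63 (adjusted p at most 0.210) and that from 2 h from -1.03 to -0.61 (at most 0.262). On return F11R was at -0.33 ± 0.22 from 0 h (adjusted p = 0.349).

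Over the 7 genes, 1 rose (TJP1) and 1 fell (F11R) at 18 h against 0 h, beside 15.0% of all tested genes called higher and 12.2% called lower, and the median change of the 7 was -0.21 against 0.02 for all genes. At 18 h against 2 h 1 fell (F11R), beside 8.33% of all tested genes. At 2 h against 0 h limma called 0 of the 7, beside 4.62% of all genes, with 3 at an unadjusted p under 0.05, beside 23.5%. On return 1 was above 0 h (TJP1), beside 7.75% of all genes. Against 18 h limma called 0 on return, beside 3.34% of all genes, with 1 at an unadjusted p under 0.05, beside 19.1%. Beside these backgrounds, such counts among 7 genes are no result about the genes as a group.

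**Figure D2:**
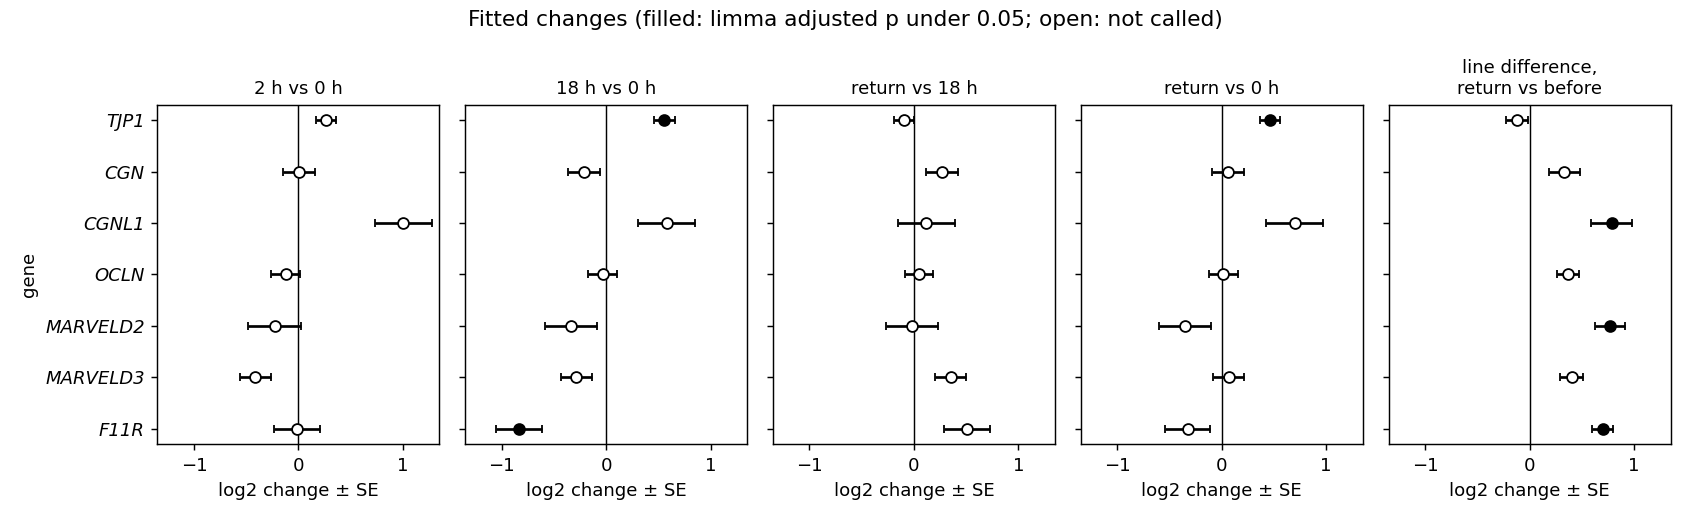
Fitted log2 changes (x axis) with their SE for the 7 genes (y axis) in 4 step comparisons and, at the right, in the change of the difference BLT2 minus Mock from the steps before to the steps after calcium return. Filled points have a limma adjusted p under 0.05, as TJP1 and F11R do at 18 h and CGNL1, MARVELD2 and F11R in the difference between the lines.

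What followed calcium return differed between the lines for F11R and MARVELD2, tested further on. F11R in BLT2 cells was 0.91 above its 18 h signal on return and 0.05 from its 0 h signal, whereas in Mock cells it was 0.10 above 18 h and at -0.70 from 0 h. MARVELD2 was 0.35 above 18 h in BLT2 cells and at -0.38 in Mock cells. MARVELD3 was 0.63 above 18 h in BLT2 and 0.08 in Mock cells, and OCLN 0.25 above in BLT2 cells and at -0.15 in Mock cells. Among the proteins under the membrane, CGN was 0.59 above 18 h in BLT2 cells and at -0.05 in Mock cells. CGNL1 was 0.54 above 18 h in BLT2 cells and at -0.30 in Mock cells. TJP1 was the exception, at -0.15 in BLT2 and -0.04 in Mock cells. In BLT2 cells 4 of the 7 were at least 0.5 higher on return than at 18 h, beside 9.49% of all tested genes, and 0 were that much lower, beside 7.62%. The 4 were F11R, MARVELD3, CGN and CGNL1. In BLT2 cells CGNL1 lay above the filter level only on the return arrays, so it adds no support to this count. In Mock cells 0 of the 7 moved by that size in either direction, beside 7.56% of all genes. The median difference of the 7 was 0.54 in BLT2 cells, where that of all genes was 0.00, and -0.05 in Mock cells. The 0.54 is the value of CGNL1 itself and is limited by its low signals.

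**Figure D3:**
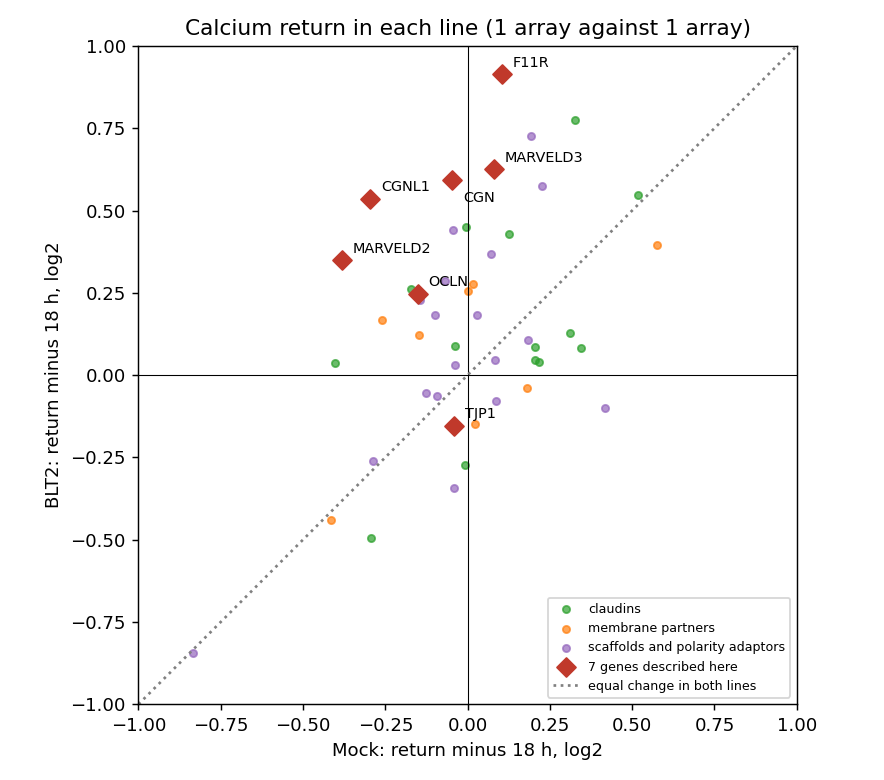
Log2 signal on calcium return minus that at 18 h in Mock (x axis) and BLT2 cells (y axis), 1 array against 1 array, for the 7 genes (red diamonds) and the tested genes of 3 lists of junction partners (small points). Of the 7 genes 6 lie above the dotted line of equal change, F11R the highest at 0.91, and TJP1 lies just below it.

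The difference between the lines was tested on the gap BLT2 minus Mock at each step, comparing the 2 steps after return with the 3 before. For F11R the gap was -0.19 at 0 h, -0.17 at 2 h and -0.26 at 18 h, and 0.55 on return and 0.44 on return with 12-HHT. Its mean was 0.70 ± 0.10 higher after return (limma adjusted p = 0.0113, 95% interval 0.46 to 0.94). For MARVELD2 the gap was -0.16, -0.56 and -0.20 before return and 0.53 and 0.40 after it, a difference of 0.77 ± 0.15 (limma adjusted p = 0.0231, interval 0.43 to 1.12). For both genes BLT2 cells were below Mock cells at every step before return and above them after it. CGNL1 had gaps of -0.15, -0.86 and -0.49 before and 0.34 and 0.23 after, a difference of 0.79 ± 0.20 (limma adjusted p = 0.0483). CGNL1 passed the filter only through 4 arrays, those of Mock cells at 2 h and 18 h and of BLT2 cells at both return steps, which are the arrays that set this difference, and every gap holds an array below the filter level. With no filter its adjusted p was 0.0774 and after quantile normalization 0.0561, so that its call supports nothing here.

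The other gaps moved the same way, apart from TJP1, but were not called. MARVELD3 had gaps of 0.03, 0.14 and -0.02 before return and 0.53 and 0.37 after it, a difference of 0.40 ± 0.11 (limma adjusted p = 0.0572). OCLN had gaps of 0.01, -0.13 and -0.11 before and 0.28 and 0.29 after, a difference of 0.37 ± 0.10 (adjusted p = 0.0610). CGN had gaps of -0.17, -0.33 and -0.61 before and 0.03 and -0.10 after, a difference of 0.33 ± 0.15 (adjusted p = 0.167). TJP1 had a gap below 0 at all 5 steps, from -0.27 to -0.05, and a difference of -0.12 ± 0.10 (adjusted p = 0.456, interval -0.37 to 0.13).

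With CGNL1 counted, 3 of the 7 were called higher in this test and 0 lower, beside 8.50% and 2.84% of all tested genes. With CGNL1 set aside, because it entered through the arrays that set its difference, the called genes were F11R and MARVELD2. For 6 of the 7 the gaps after return lay above all gaps before it, which 30.3% of all tested genes also showed. CGNL1 is among these 6 as well and adds no support there. The median difference was 0.40 for the 7 and 0.03 for all genes. The error here comes from 5 gaps, so it holds true differences between steps as well as array noise. Without both 0 h arrays, both return arrays or both arrays of return with 12-HHT, 0 of the 7 were called, while over all genes the count went from 1190 to 165, 51 and 95. The differences themselves were 0.64 to 0.76 for F11R, 0.65 to 0.84 for MARVELD2 and 0.61 to 0.96 for CGNL1 when any 1 step was left out, with adjusted p at most 0.114, 0.167 and 0.249. The widest gaps of MARVELD2 and CGNL1 before return were at 2 h, the step of the BLT2 array that stood apart. Without both 2 h arrays F11R, MARVELD2 and CGNL1 were called, and MARVELD3 too (adjusted p = 0.0330).

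**Figure D4:**
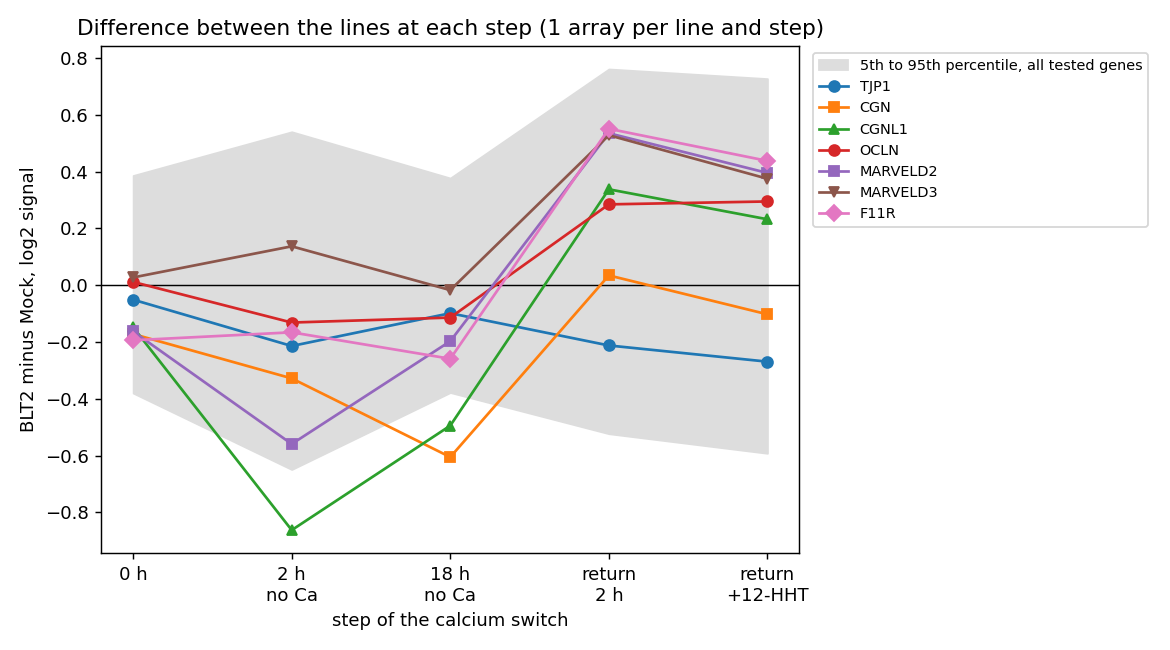
Difference BLT2 minus Mock in log2 signal (y axis) at each step (x axis) for the 7 genes, with the 5th to 95th percentile of all tested genes in grey. Of the 7 genes 2 lie above 0 at 0 h, 1 at 2 h and 0 at 18 h, against 6 on return and 5 on return with 12-HHT, and after return all 7 lie within the grey band.

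Averaged over all 5 steps the lines were not told apart in these genes. In the additive fit limma called 0 of the 7 for BLT2 against Mock, beside 15.9% of all tested genes, with 2 at an unadjusted p under 0.05, beside 33.9%. Those 2 were CGN at -0.23 ± 0.10 (adjusted p = 0.135) and TJP1 at -0.17 ± 0.06 (adjusted p = 0.101). F11R and MARVELD2, whose gaps changed sign on return, averaged 0.07 ± 0.14 and 0.00 ± 0.16. That model holds no term for a response that differs between the lines, so such a response enters the SE of its step comparisons.

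Adding 200 nM 12-HHT during the return moved these signals little in either line. In BLT2 cells the differences from return alone ran from -0.21 for CGN to 0.05 for MARVELD2, with OCLN at 0.05, F11R at -0.07, MARVELD3 at -0.12, TJP1 at -0.05 and CGNL1 at 0.01. In Mock cells they ran from -0.07 for CGN to 0.19 for MARVELD2. Of the 7, 0 reached 0.5 in BLT2 cells, beside 0.648% of all tested genes, and 0 in Mock cells, beside 0.257%. The median size of the difference was 0.05 for the 7 in each line, against 0.07 for all genes. In the additive fit limma called 0 of the 7 and 0 of all 10498 genes (0%), with 0 of the 7 and 29 genes (0.276%) at an unadjusted p under 0.05. The SE of this fit also holds differences in response between the lines, so 0 calls do not show the absence of a 12-HHT response. The 95% interval of the 12-HHT difference was -0.52 to 0.50 for F11R, -0.46 to 0.71 for MARVELD2, -0.28 to 0.36 for OCLN and -0.25 to 0.21 for TJP1. These intervals are for the mean of both lines and are not adjusted for the number of genes. Differences inside them are not excluded, and a response of 1 line alone would be diluted in them. LTB4R2, the gene of BLT2, was not analysed here.

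Other junction genes were described from 3 lists, whose counts stand beside 15.0% of all tested genes called higher and 12.2% called lower at 18 h against 0 h. In the test of the gap between the lines they stand beside 8.50% called higher, 2.84% called lower and 31.6% at an unadjusted p under 0.05. TJP3, which encodes the scaffold ZO-3, had signals of 7.91 to 8.01 in Mock and 7.93 to 8.16 in BLT2 cells and was at -0.05 ± 0.10 at 18 h against 0 h (limma adjusted p = 0.795). Of 18 tested scaffolds and polarity adaptors 2 rose and 1 fell at 18 h against 0 h, with a median of -0.04. PARD6B, a polarity protein of the Par complex, rose by 0.72 ± 0.10 (limma adjusted p = 0.00331) and its partner kinase PRKCI by 0.36 ± 0.11, while CRB3, an apical membrane protein that binds the Pals1 scaffold, fell by 0.62 ± 0.17. The PRKCI and CRB3 calls were lost when any of the 4 arrays at 0 h and 18 h was left out, with adjusted p at most 0.298 and 0.252. Both were also lost with no filter, and that of PRKCI after median centring and without both 12-HHT arrays.

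In the test of the gap between the lines 2 of these 18 were called higher, AFDN and VCL, with 8 at an unadjusted p under 0.05 and a median of 0.13. AFDN encodes afadin, which joins nectins to actin and binds ZO-1. Its signals in Mock cells were 10.15, 10.01, 9.59, 9.78 and 9.72 in the order of the steps, and in BLT2 cells 10.22, 10.09, 9.60, 10.33 and 10.55. Both lines had their lowest AFDN signal at 18 h, and both BLT2 return arrays were above the 0 h signal while both Mock return arrays were below it. The difference of the gaps for AFDN was 0.64 ± 0.12 (limma adjusted p = 0.0212), with the call lost in 3 of the 5 fits that left out a step (adjusted p at most 0.148). VCL encodes vinculin, an actin linker of adhesions under tension, and its difference was 0.44 ± 0.11 (adjusted p = 0.0390), with the call lost in 4 of the 5 fits that left out a step.

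Among 8 tested membrane partners, 2 rose and 1 fell at 18 h against 0 h. NECTIN2, a nectin of adherens junctions, rose by 0.57 ± 0.13 and IGSF5, the gene of JAM4, by 0.57 ± 0.15, while TSPAN33, a tetraspanin that binds PLEKHA7 complexes at junctions, fell by 0.66 ± 0.15 (limma adjusted p = 0.0165, 0.0304 and 0.0205). None of these 3 calls held in every fit without 1 array. In the test of the gap limma called 0 of the 8, with 3 at an unadjusted p under 0.05 and a median of -0.01.

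Of 14 tested claudins, 3 rose and 1 fell at 18 h against 0 h, with a median of 0.03. In the test of the gap limma called 0 of the 14, with 6 at an unadjusted p under 0.05, and their median of -0.24 had the opposite sign to that of the 7 genes, 0.40. Of those 6, CLDN4 was at 0.63, CLDN3 at 0.43 and CLDN7 at 0.29, whereas CLDN23 was at -0.40, CLDN5 at -0.37 and CLDN6 at -0.35. Over the list 10 of the 14 values were below 0. The largest in size, CLDN2 at 1.28 (limma unadjusted p = 0.0543), was not among the 6. Its BLT2 signals ran from 6.50 at 18 h to 7.53 at 2 h, on both sides of the filter level of 7.21. CLDN5 had signals of 7.4 to 7.84, near that level, and CLDN4 of 9.85 to 11.87.

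The 7 genes fell into different patterns over the 10 arrays. OCLN and MARVELD3 had the highest correlation of any pair, 0.81, followed by MARVELD2 with F11R at 0.69 and OCLN with MARVELD2 at 0.66. TJP1 ran opposite to F11R, at -0.75, and to MARVELD2, at -0.51. CGN and CGNL1, the 2 related genes under the membrane, correlated at 0.39. These correlations describe 10 arrays that share lines and steps.

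Among 4222 tested genes with an SD of at least 0.25, those most like each member by Pearson correlation over the 10 arrays were found. F11R was closest to PSME1, a proteasome activator subunit (0.98), DCLK1, a kinase that binds microtubules (0.98), and TRAPPC9, a subunit of a vesicle tethering complex (0.98). TJP1 was closest to YIPF6, a Golgi membrane protein (0.99), CPT1A, which carries fatty acids into mitochondria (0.99), and RBPMS, an RNA-binding protein (0.98). MARVELD3 was closest to SOX13, a transcription factor (0.98), CX3CL1, a membrane-bound chemokine (0.98), and NEU1, a lysosomal sialidase (0.97).

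The other likenesses were somewhat lower. OCLN was closest to HTRA2, a mitochondrial protease (0.93), SNRK, a kinase (0.91), and TNFRSF21, a death receptor (0.90). MARVELD2 was closest to SLC35B3, a carrier of sulphate donors in the Golgi (0.92), ARSK, a sulphatase (0.92), and DPY19L3, a mannosyltransferase (0.92). CGN was closest to ICA1 (0.90), ANK3, the scaffold ankyrin-G (0.86), and ALDH1L1, an enzyme of folate metabolism (0.86). CGNL1 was closest to ALDH1L2, the mitochondrial relative of ALDH1L1 (0.96), PCK2, a mitochondrial enzyme of gluconeogenesis (0.93), and ABCA8, a lipid transporter (0.88). CGNL1 lay above the filter level on only 4 arrays, and ABCA8 was at 5.75 in Mock and 5.64 in BLT2 cells at 0 h. The likenesses of CGNL1 therefore carry little information.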

How the data were processed

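Log2 signals of 10 arrays were used as the authors deposited them. Per the submitters' processing notes they were made with Affymetrix Expression Console and GCRMA, which corrects probe background by sequence and puts arrays on 1 distribution, so shifts shared by a whole array cannot be seen; versions and annotation are not given in the sources used here. The log2 scale was read from the values, which start at 1.55. Columns were matched by sample name, with 0 left over. Of 32391 probe sets 16545 had 1 gene symbol in the platform annotation, 370 several and 15476 none listed; 15820 of the 16545 matched a RefSeq gene ID. The probe set with the highest mean stood for a gene. Genes above 7.21 on at least 2 arrays were tested with limma 3.58.1 (R 4.3.3): an additive model of line and step (4 residual degrees of freedom) for 7 comparisons, and a fit to the 5 gaps BLT2 minus Mock (3 residual degrees of freedom) for 1, each adjusted by Benjamini-Hochberg. The preparations mixed in each RNA cannot be separated, so there is no replicate array.

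The 7 members, the 3 lists described and the tests were chosen with earlier results of these data known. Named were all members, TJP3, up to 4 called genes per list and comparison by size, of which part is printed, and the 3 genes most like each member. The 6 claudins named at an unadjusted p under 0.05, and CLDN2 as the largest in size, were chosen after their values were seen. On simulated arrays the additive fit recovered 78% of genes planted at a change of 1 at 18 h against 0 h and the fit to the gaps 43%, over 10498 genes. These arrays had independent noise, 200 planted genes and no change in the others. The changes of the 7 genes in both comparisons were below 1 in size, so these shares do not carry over to them. Alternatives were 2 other filters, quantile normalization, averaging the probe sets of each gene, median centring, an intensity trend, fewer arrays and leaving out each array or step. A further list of partners is not reported here.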

Additional observations from a re-analysis of the deposited data

Results flagged for a closer look

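The test on the gaps BLT2 minus Mock, both return steps against the 3 steps before, called 5 named genes, CGNL1 counted. Of all tested genes that test called 8.50% higher and 2.84% lower. After minus before return, the gap was 0.70 higher for F11R (limma adjusted p = 0.0113), 0.77 for MARVELD2 (0.0231) and 0.79 for CGNL1 (0.0483). CGNL1 passed the filter only through the 4 arrays that set this difference, and each of its gaps holds an array below the filter level. With no filter its limma adjusted p was 0.0774, so that its call supports nothing here. Among the partners the gap was 0.64 higher for AFDN (0.0212) and 0.44 for VCL (0.0390), both given because this test called them. For all 5, both gaps after return were above the 3 before it, as they were for 30.3% of all tested genes. The 5 were listed for their calls on these same gaps, so this adds no support. All 5 calls were lost without both 0 h arrays, and without both arrays of either return step.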

How the results depend on the processing

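Each step rests on 2 arrays and each line and step on 1, so most calls hang on single arrays. Fitting only the arrays of the steps compared called 5 of the 7 genes at 18 h against 0 h instead of 2 (with CGNL1, MARVELD2 and MARVELD3), 2 at 2 h (CGNL1 and MARVELD3) instead of 0, and 0 on return against 0 h instead of 1. The 6 arrays before return, a choice made after seeing the data, also called 2 at 2 h. Of the CGNL1 signals at 0 h, 2 h and 18 h only those of Mock cells at 2 h and 18 h lay above the filter level. Both TJP1 and F11R were called at 18 h against 2 h (2 instead of 1) with an intensity trend and with the stricter filter, which tested 3 of the 7, and 1 (TJP1) for BLT2 against Mock with the trend. In the gap test MARVELD3 was called after quantile normalization (adjusted p = 0.0385), OCLN with the trend or the stricter filter (lowest adjusted p = 0.0332), and VCL lost its call with no filter and after quantile normalization (up to 0.0834). Over all genes, the gap test called 1190, against 607 with no filter and 51 to 1756 without 1 step. BLT2 against Mock called 1674, against 575 without both 12-HHT arrays. The count at 2 h was 485, against 1805 with the arrays of both steps alone and 34 to 1024 without 1 array. That at 18 h against 0 h was 2860, against 5460 and 591 to 3148, and that on return against 0 h 1579, against 643 and 40 to 1848. Without 1 array it went from 2381 to between 37 and 2279 at 18 h against 2 h and from 351 to between 2 and 375 on return against 18 h, so the background shares printed beside the 7 genes move as well. Leaving out each array or step in turn, the number of the 7 called was 0 to 2 at 18 h against 0 h, 0 to 1 at 18 h against 2 h, 0 to 4 in the gap test, 0 to 1 on return against 0 h and 0 in the other comparisons.

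Some uncalled values near 0 changed sign. F11R at 2 h was 0.036 after quantile normalization and -0.017 for BLT2 against Mock without both 12-HHT arrays. MARVELD2 for BLT2 against Mock was -0.019 after median centring and -0.096 without both 12-HHT arrays. Leaving out each array gave the ranges that follow. At 18 h against 0 h they were -0.44 to 0.021 for CGN, -0.15 to 0.083 for OCLN and -0.095 to 0.0016 for TJP3. At 18 h against 2 h they were -0.45 to 0.014 for CGN, -0.46 to 0.25 for MARVELD2, -0.015 to 0.27 for MARVELD3 and -0.035 to 0.22 for OCLN. At 2 h against 0 h they were -0.052 to 0.065 for CGN, -0.18 to 0.15 for F11R, -0.58 to 0.12 for MARVELD2, -0.25 to 0.0035 for OCLN and -0.042 to 0.17 for TJP3. On return against 0 h they were -0.11 to 0.23 for CGN, -0.13 to 0.27 for MARVELD3, -0.12 to 0.15 for OCLN and -0.055 to 0.090 for TJP3. On return against 18 h they were -0.21 to 0.45 for CGNL1, -0.35 to 0.32 for MARVELD2, -0.086 to 0.18 for OCLN and -0.0080 to 0.14 for TJP3. For 12-HHT they were -0.31 to 0.028 for CGN, -0.27 to 0.39 for CGNL1, -0.31 to 0.29 for F11R, -0.21 to 0.46 for MARVELD2, -0.25 to 0.15 for MARVELD3, -0.098 to 0.18 for OCLN, -0.082 to 0.043 for TJP1 and -0.11 to 0.039 for TJP3. For BLT2 against Mock they were -0.045 to 0.16 for F11R and -0.13 to 0.14 for MARVELD2. The cause of these changes was not tested. Over the settings other than leaving out each array or step in turn, among them the fits without both 12-HHT arrays, 388 values of the 7 genes kept their direction and side of the threshold, 14 gained a call, 3 lost one and 4 changed sign. For the other genes followed 382 kept both and 39 lost a call.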
